A study of Mus musculus with 3 samples.

Results

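The mitosis genes described here are 31 genes whose products condense, attach, pull apart and separate chromosomes and daughter cells. They were chosen by symbol, and 30 of the 31 had a row among the 19059 genes of the matrices, since Ccnb1 had none. They were followed in leukocytes of newborn mouse liver, an organ in which blood cells still form at birth. Livers of mice at postnatal day 0 were dissociated, red cells were lysed, and viable cells bearing CD45, the shared surface protein of leukocytes, were sorted, fixed and measured with the Flex probe capture assay. The groups were Pex2-/- (KO), Pex2-/+ (Het) and Pex2+/+ (WT) mice, with 1 library each. Pex2 encodes a membrane protein that peroxisomes need to import their enzymes, and its loss is used as a model of severe Zellweger disease. The sources used here do not state how the null allele was made or how many animals went into a library. With 1 library per genotype no difference has a replicate check and no test was possible. Intervals are exact, at a level of 95%, and cover counting error only.

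Cells copy their DNA in S phase and then switch on a shared set of genes that act at mitosis. The kinase Cdk1 with its A and B cyclins starts mitosis, Polo and Aurora kinases build the spindle, and kinetochore proteins tie each chromosome to it. A checkpoint holds the cell until every chromosome is attached, after which Cdc20 and Ube2c help mark the cyclins for destruction and the midzone proteins divide the cell. In the neutrophil lineage precursors and granule-forming cells still divide, and mature neutrophils do not. In the B lineage dividing pre-B cells precede resting immature B cells.

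Depth differed between the libraries. Captured molecules were counted as unique molecular identifiers (UMIs), 186295183 of them over 8245 barcodes in the KO library. The library labelled Het had 144589956 over 8000 barcodes, and the library labelled WT 96629431 over 9600. The median UMIs per barcode were 19348, 15558.5 and 8218.5 in the same order. Pex2 had 2 UMIs in the KO library (0.0107 CPM, counts scaled to a total of 1000000), against 53.3 CPM in the library labelled Het and 23.6 CPM in the library labelled WT. A heterozygote above the wild type goes against the labels, so the last 2 are called here by their labels only. Ptprc, the CD45 gene, stood at 311, 250 and 249 CPM in the KO library and the libraries labelled Het and WT. No full barcode was shared. The first 16 bases, which name the droplet, were shared by 961 to 1184 barcodes per pair of libraries, and each library carried 1 sample barcode of 8 bases. Cells were placed in classes by summed marker genes, so that a class is a gate and not an authors' annotation.

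A known feature of mitosis gene promoters is the cell cycle homology region, TTTGAA or TTTAAA, next to CCAAT boxes. The RefSeq table for GRCm38.p6 held the start of 27 of the 31 members, as 30 windows of 250 bases before the start. On either strand, TTTGAA or TTTAAA was found in 18 of the 30 windows (60.0%) and in 25.2% of all 32851 windows. CCAAT was found in 24 (80.0%) and in 33.8% of all windows, and both together in 16 (53.3%) and in 8.78%. These matches are letters in a window and not measured binding sites. The following 4 windows belong to the members with the highest mean CPM among those holding TTTGAA or TTTAAA. They are shown because these letters recur across the list: Mki67 and Top2a define the dividing cells, and Ube2c and Ccnb2 act at the end and the start of mitosis. Capitals mark TTTGAA or TTTAAA, and also CCAAT, on either strand, and each window is read along the gene's strand. The windows lie at chr7:135716380-135716629 (minus strand), chr11:99024190-99024439 (minus), chr2:164769679-164769928 (plus) and chr9:70421555-70421804 (minus).
Mki67: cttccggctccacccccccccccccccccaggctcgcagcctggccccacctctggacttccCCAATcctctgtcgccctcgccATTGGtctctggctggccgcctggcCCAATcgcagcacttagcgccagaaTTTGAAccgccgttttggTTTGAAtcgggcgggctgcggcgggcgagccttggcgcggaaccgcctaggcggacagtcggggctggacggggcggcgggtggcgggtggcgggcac
Top2a: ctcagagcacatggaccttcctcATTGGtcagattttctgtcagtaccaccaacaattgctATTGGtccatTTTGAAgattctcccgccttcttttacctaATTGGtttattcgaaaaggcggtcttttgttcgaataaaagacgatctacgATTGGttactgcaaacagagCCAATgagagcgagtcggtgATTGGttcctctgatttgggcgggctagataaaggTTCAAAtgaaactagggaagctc
Ube2c: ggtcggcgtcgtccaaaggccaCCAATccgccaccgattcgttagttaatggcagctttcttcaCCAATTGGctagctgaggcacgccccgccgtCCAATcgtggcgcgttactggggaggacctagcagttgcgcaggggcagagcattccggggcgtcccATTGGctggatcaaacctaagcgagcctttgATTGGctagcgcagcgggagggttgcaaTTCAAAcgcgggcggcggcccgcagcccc
Ccnb2: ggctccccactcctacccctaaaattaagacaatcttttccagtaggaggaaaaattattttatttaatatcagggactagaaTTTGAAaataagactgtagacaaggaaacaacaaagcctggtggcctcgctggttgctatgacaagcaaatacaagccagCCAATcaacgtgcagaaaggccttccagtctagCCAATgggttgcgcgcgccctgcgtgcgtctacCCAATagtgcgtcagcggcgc
The match to TTTGAA or TTTAAA nearest the start lay 98 bases before it in Mki67, 23 in Top2a, 29 in Ube2c and 167 in Ccnb2. In Ube2c a pair of CCAAT matches on opposite strands overlap as CCAATTGG.

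A cell was called dividing when its Mki67 and Top2a together reached 400 CPM. Mki67 coats mitotic chromosomes and marks cycling cells, and Top2a untangles sister chromatids. Of the KO cells 45.2% were dividing, of those labelled Het 43.1%, and of those labelled WT 34.7%. These totals held opposite differences between classes. In the neutrophil lineage 49.2% of 5517 KO cells were dividing (interval 47.8 to 50.5), against 42.1% of 5148 cells labelled Het (40.8 to 43.5) and 30.4% of 6204 labelled WT (29.2 to 31.5). In the B lineage 18.5% of 853 KO cells were dividing (15.97 to 21.3), against 48.7% of 1190 labelled Het (45.9 to 51.6) and 43.5% of 1742 labelled WT (41.2 to 45.9). The KO library was thus the highest of the 3 in neutrophils and the lowest in B cells.

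In monocytes 543 of 914 KO cells were dividing (59.4%), against 270 of 545 labelled Het (49.5%) and 314 of 570 labelled WT (55.1%). The KO share over that labelled Het was 1.199 (1.03 to 1.39) and over that labelled WT 1.08 (0.937 to 1.24), so the second interval held 1. Erythroid cells had 48.7%, 54.3% and 51.9% dividing in the KO library and the libraries labelled Het and WT, with intervals that overlapped. Few macrophages were called dividing in any library: 2 of 121 KO cells, 7 of 67 labelled Het and 3 of 70 labelled WT. The call rested on 1 UMI in 2 of the KO cells, 3 of those labelled Het and 1 of those labelled WT. Dividing macrophages had median UMIs of 1628.5 in the KO library and 909 in that labelled Het, against 13564 and 10088 in the others. In the library labelled WT the medians were 11896 and 7104.

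**Figure D1:**
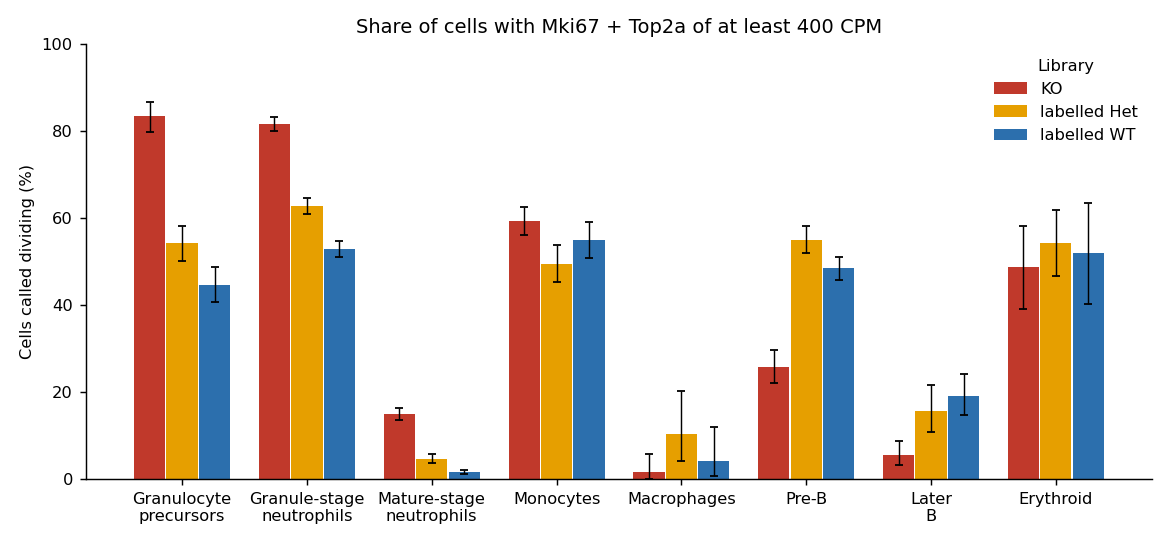
Share of cells called dividing (percent, vertical axis) in each class, with 1 bar per library (KO, labelled Het, labelled WT) and exact binomial intervals for counting error. The KO bars are the highest in the 3 neutrophil stages and the lowest in pre-B and later B cells.

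Dividing cells were deeper than the others, with median UMIs of 31507 against 13280.5 in the KO library, 22672 against 11942.5 in that labelled Het and 12649.5 against 6754 in that labelled WT. A single UMI passed the threshold in 32, 34 and 54 dividing cells of the KO library and those labelled Het and WT. Just below the threshold, at 300 to 400 CPM, lay 146 KO cells, 260 labelled Het and 277 labelled WT. Just above it, at 400 to 500 CPM, lay 160, 200 and 232. When the cells of the KO library and of that labelled Het were drawn down to the median of that labelled WT, the neutrophil shares were 48.7%, 41.8% and 30.4%, and the B shares 19.1%, 49.2% and 43.5%. Called by 3 other members, Cenpf, Ccna2 and Cdk1 summed, dividing cells made up 35.9% of KO neutrophils, 32.01% of those labelled Het and 22.8% of those labelled WT. Of B cells the same genes called 13.5%, 40.8% and 35.9%. Both classes thus kept the order of the libraries when the definition did not use Mki67 or Top2a.

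The members marked the dividing cells in the neutrophil lineage. In KO neutrophils a member's CPM in dividing cells was 4.12 times (Bub3) to 92.9 times (Nusap1) its CPM in the other cells. Between 77.4% and 99.5% of each member's UMIs lay in dividing cells over the 3 libraries. Bub3, Ccnb2 and Cenpa had the lowest ratios in the KO library. These values pool the stages. In KO granulocyte precursors alone the range was 1.12 (Bub3, 0.997 to 1.26) to 17.6 (Nusap1), with Ccnb2 at 1.28 and Cenpa at 1.51.

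Over the whole neutrophil lineage most members stood higher in the KO library. The 28 members other than Mki67 and Top2a summed to 3390 CPM in KO neutrophils, against 2854 CPM in those labelled Het and 2259 CPM in those labelled WT. A gene was called when its CPM differed by at least 1.5-fold and the interval of the ratio excluded 1, among features with 30 UMIs or more and a mean of 10 CPM or more. All 30 measured members passed that minimum. Of all features tested, 3.33% were called higher and 11.7% lower in KO neutrophils than in those labelled Het, and 3 of the 30 members were called higher and 0 lower. Against the library labelled WT, 11.7% of features were called higher and 16.3% lower, and 16 of the 30 members were called higher and 0 lower. The library labelled Het was itself above that labelled WT for 3 members (Mki67, Bub1 and Nuf2), where 3.92% of features were called. The members' median log2 ratio was 0.26 for KO over Het and 0.62 for KO over WT, beside −0.08 and −0.05 over all features. With TMM scaling 6 and 23 members were called higher, where 7.95% and 19.1% of features were, and the median over all features became 0.10 and 0.13. TMM also turned the split of all calls for KO over Het from 247 higher and 871 lower to 590 higher and 516 lower. The values below use the library totals, and levels of different genes are not compared, since each gene has its own probes.

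Among the cyclins and kinases that open mitosis, Ccnb2 (cyclin B2) had 257 CPM in KO neutrophils, 167 CPM in those labelled Het and 127 CPM in those labelled WT, ratios of 1.54 (1.51 to 1.57) and 2.02. Ccna2 (cyclin A2) had 299, 240 and 166 CPM and was called against WT only, at 1.80. Plk1, which matures centrosomes and recruits other spindle factors, had 131, 115 and 82.9 CPM and was called against WT at 1.58. Cdk1 and Aurka were called in neither comparison. Cdk1 had 210, 196 and 145 CPM, and Aurka, the spindle pole kinase, had 68.9, 74.2 and 66.1 CPM. The ratios of Aurka were 0.928 and 1.04, so the 3 libraries stood close together.

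Of the chromosomal passenger complex, which corrects faulty attachments, Aurkb had 84.6 CPM in KO neutrophils, 98.4 CPM in those labelled Het and 102 CPM in those labelled WT, and was not called. Its partner Birc5 (survivin) had 167, 151 and 121 CPM and was not called. The checkpoint kinase Bub1 had 44.2, 26.4 and 17.5 CPM, with ratios of 1.67 (1.60 to 1.75) and 2.52, and was called in both comparisons. The checkpoint genes Bub1b (82.0, 65.3 and 53.3 CPM) and Ttk (35.8, 30.3 and 21.9 CPM) were called against WT only, at 1.54 and 1.64. Bub3, the adaptor that brings Bub1 to kinetochores, had 127, 119 and 122 CPM, nearly the same in all 3 libraries. Of the genes that end the checkpoint, Ube2c was called against WT (236, 194 and 152 CPM, 1.56), and Cdc20 was called in neither (138, 128 and 114 CPM).

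In the GRCm38 annotation Bub1 lies at chr2:127801122-127831865, Nuf2 at chr1:169497934-169531464, Ccnb2 at chr9:70407692-70421547 and Aurka at chr2:172356190-172370535, all on the minus strand, and Aurkb at chr11:69045647-69051664 on the plus strand. At the kinetochore the partners Nuf2 and Ndc80, which sit in the same rod-shaped complex, differed from each other. Nuf2 had 121 CPM in KO neutrophils, 73.8 CPM in those labelled Het and 47.8 CPM in those labelled WT, with ratios of 1.64 (1.59 to 1.68) and 2.53, both called. Ndc80 had 69.8, 72.4 and 58.6 CPM, ratios of 0.964 and 1.19, and was called in neither. The centromere histone Cenpa (115, 85.6 and 85.8 CPM), the kinetochore motor Cenpe (50.3, 41.6 and 34.0 CPM) and Cenpf (66.2, 60.9 and 45.6 CPM) were not called either. Among the spindle genes Kif11, the motor that pushes the poles apart (120, 95.6 and 73.1 CPM), Hmmr (95.7, 75.1 and 57.3 CPM) and Nusap1 (159, 141 and 104 CPM) were called against WT, at 1.65, 1.67 and 1.53. Kif2c and Tpx2 were not. Of the genes of the midzone and of cell separation, Kif20a, Kif23, Anln and Ect2 were called against WT at 1.79, 1.68, 1.64 and 1.58. Prc1, which bundles midzone microtubules, had 108, 106 and 82.8 CPM and was not called.

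**Figure D2:**
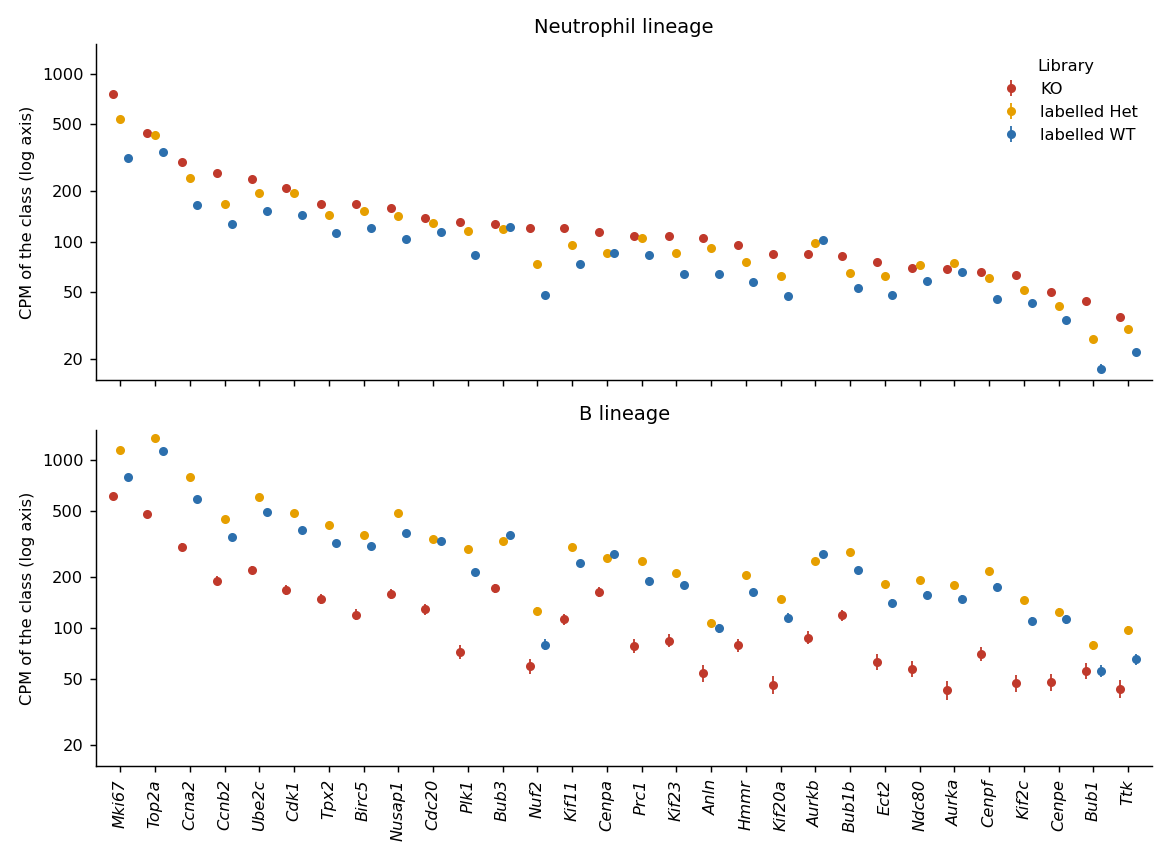
CPM of the 30 measured members over the whole neutrophil lineage (upper panel) and B lineage (lower panel) on a log axis, with 1 point per library (KO, labelled Het, labelled WT) and exact Poisson intervals. In neutrophils the KO points are mostly the highest, with Nuf2 at 121, 73.8 and 47.8 CPM, and in B cells they are mostly the lowest, with Aurka at 42.5, 180 and 148 CPM.

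Within dividing neutrophils the sum of the members was nearly level over the whole lineage. The 28 members summed to 4912 CPM in dividing KO neutrophils, 4863 CPM in those labelled Het and 4771 CPM in those labelled WT, ratios of 1.01 and 1.03. By stage the KO over WT ratio in dividing cells was 1.12 in precursors, 0.964 in granule-stage and 1.51 in mature-stage neutrophils. None of the 30 was called against Het, where 3.41% of features were called higher and 7.70% lower. Against WT 3 were called higher, where 11.0% of features were, and 1 lower, where 16.5% were. All these counts lie near or below the background, so the members named next are a description only. Within the sum some members went different ways. Nuf2 had 177 CPM in dividing KO neutrophils, 129 CPM in those labelled Het and 105 CPM in those labelled WT, and Bub1 had 64.8, 45.4 and 37.4 CPM. Both were called against WT, at 1.70 and 1.73, as was Mki67 (1103, 917 and 669 CPM), which helped choose the cells. Aurkb, called lower, had 125, 173 and 223 CPM, a KO over WT ratio of 0.561. Aurka lay in the same order, at 100, 128 and 143 CPM, without a call. In all of these the library labelled Het stood between the other 2, and the largest Het over WT difference in them lay below 1.5-fold.

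The difference between libraries was split into a part from the share of UMIs that came from dividing cells, a part from the level in dividing cells and a part from the level in the other cells. For the 28 members summed, KO neutrophils stood 535.9 CPM above those labelled Het. Of that, the share part was 533.1 CPM (99.5%), the level in dividing cells gave 29.8 CPM and the level in the other cells −26.9 CPM. Against WT the difference was 1131.5 CPM, with 1084.6 CPM from the share (95.9%), 77.8 CPM from dividing cells and −30.9 CPM from the others. The stages differed in this. For KO minus Het the share part was 70.8% in precursors, 130% in granule-stage and 97.1% in mature-stage neutrophils. For KO minus WT it was 70.9%, 114% and 77.3%. The part from the other cells, negative over the lineage, was above 0 in each stage (99.4, 11.2 and 38.4 CPM for KO minus Het). Dividing cells held 67.1% of the UMIs of KO neutrophils, 55.4% of those labelled Het and 43.1% of those labelled WT. The median UMIs of dividing neutrophils were 2.18, 1.87 and 1.90 times those of the others in the same order. In every class the share part thus joins the share of dividing cells with their depth, and these were not separated. The split depends on where the threshold is set. At 200 CPM the share part was 297.0 CPM for KO over Het (55.4%) and 818.4 CPM for KO over WT (72.3%), and at 800 CPM it was 552.1 CPM (103%) and 1094.8 CPM (96.8%). Taken singly, 25 of the 28 members had a KO minus Het difference above 0, and in 21 of the 28 the share part was larger in size than the part from the level in dividing cells. For KO minus WT these counts were 27 and 24. The share of all features with a difference above 0 is not given.

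**Figure D3:**
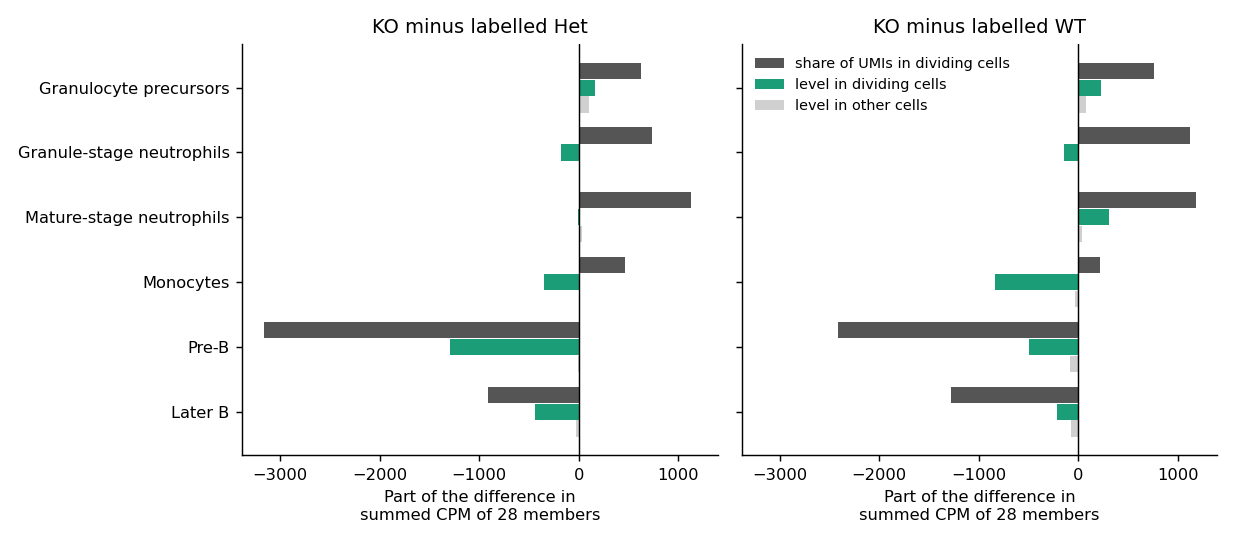
Parts of the difference in summed CPM of 28 members (horizontal axis) for KO minus labelled Het (left) and KO minus labelled WT (right), by class. Dark bars are the part from the share of UMIs in dividing cells, green bars the level in dividing cells and light bars the level in other cells. The share part is the longest bar in the neutrophil stages and the B stages, and in monocytes it stands opposite to a negative level part, at 461.2 and −345.3 CPM for KO minus Het.

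The neutrophil lineage was divided into precursors (primary granule enzymes), granule-stage cells and mature-stage cells (surface and secreted markers such as Cxcr2 and Mmp9). In granulocyte precursors 405 of 485 KO cells were dividing (83.5%), against 336 of 620 labelled Het (54.2%) and 259 of 579 labelled WT (44.7%). Here Mki67 plus Top2a ran as a continuum across the threshold, with medians per cell of 831, 442 and 353 CPM in the KO library and those labelled Het and WT. Members called higher were 14 of 30 against Het, where 5.19% of features were called, and 20 of 30 against WT, where 11.6% were. Nuf2 had 103 CPM in KO precursors, 49.1 CPM in those labelled Het and 36.3 CPM in those labelled WT. Bub1 had 55.4, 26.8 and 19.4 CPM, and Ccnb2 290, 147 and 125 CPM. These 3 were the highest by ratio, between 1.98 and 2.10 against Het. The lowest were Aurka (46.8, 48.4 and 55.4 CPM), Bub3 (106, 113 and 130 CPM) and Aurkb (70.9, 83.0 and 105 CPM), none of them called against Het. Top2a had 328, 300 and 281 CPM, a much smaller difference than Mki67 (698, 387 and 259 CPM), and Cdc20 had 144, 111 and 114 CPM.

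Genes of DNA copying stood in another order in precursors. The 43 S-phase genes (replication licensing, polymerases and histone supply) summed to 8991 CPM in dividing KO precursors, 9104 CPM in those labelled Het and 10454 CPM in those labelled WT. In precursors below the threshold they summed to 7998, 7639 and 8322 CPM, so these cells were not shown to have left the cycle. The precursor gate also held a different mix. Its precursor markers summed to 28932 CPM in KO cells, 45808 CPM in those labelled Het and 50123 CPM in those labelled WT, and its granule markers to 46102, 32469 and 29278 CPM. Split by granule markers, precursors below 3000 CPM were dividing in 66.9% of 121 KO cells, 33.9% of 227 labelled Het and 37.6% of 189 labelled WT. Those from 3000 to 30000 CPM were dividing in 78.3%, 55.6% and 35.3%, and those at 30000 CPM or more in 92.6%, 70.8% and 58.5%. The KO share was thus the highest within each of the 3 ranges.

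In granule-stage neutrophils 1902 of 2329 KO cells were dividing (81.7%), against 1752 of 2790 labelled Het (62.8%) and 1581 of 2990 labelled WT (52.9%). Bub1 (56.8, 33.8 and 25.6 CPM, 1.68 against Het) and Nuf2 (165, 103 and 74.3 CPM, 1.61) were called against Het, 2 of 30 members where 3.39% of features were called. Against WT 7 of 30 were called higher, where 13.5% of features were. Ccnb2 had 303, 213 and 188 CPM, Mki67 1019, 739 and 487 CPM, Top2a 639, 606 and 527 CPM and Cdc20 168, 165 and 167 CPM. The lowest ratios to Het were those of Aurka (91.1, 102 and 101 CPM), Aurkb (118, 132 and 151 CPM) and Ndc80 (98.3, 103 and 93.2 CPM).

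Mature-stage neutrophils showed the widest gap of the 3 stages as a ratio of shares, though not in percentage points. Of 2703 KO cells 405 were dividing (14.98%, interval 13.7 to 16.4), against 81 of 1738 labelled Het (4.66%, 3.72 to 5.76) and 43 of 2635 labelled WT (1.63%, 1.18 to 2.19). The KO share was 3.21 times that labelled Het (2.53 to 4.13) and 9.18 times that labelled WT (6.69 to 12.9), and the share labelled Het was 2.86 times that labelled WT. The 28 members summed to 1786 CPM in KO cells, 626 CPM in those labelled Het and 256 CPM in those labelled WT. Each of the 30 measured members had its highest CPM in the KO library and its lowest in that labelled WT. The share of all features in that order is not given, so the count has no background beside it. The highest ratios to Het were those of Bub1 (16.1, 3.62 and 1.10 CPM, 4.44), Nuf2 (51.9, 11.7 and 5.47 CPM, 4.43) and Ttk (12.0, 2.72 and 2.10 CPM, 4.43). Bub1 and Ttk lie under the mean of 10 CPM needed for a call. In dividing cells labelled WT they had 16 and 20 UMIs. In dividing cells alone the 28 summed to 7137 CPM in the KO library, 7169 CPM in that labelled Het and 4741 CPM in that labelled WT, where 43 cells stand behind the value. The KO over WT ratio there was 1.51 (1.45 to 1.57), and the Het over WT ratio was 1.51 too. The smallest ratios to Het were those of Aurka (41.9, 17.6 and 6.96 CPM, 2.38), Cdc20 (83.0, 37.5 and 14.6 CPM, 2.22) and Bub3 (83.0, 41.2 and 35.2 CPM, 2.02). Mki67 had 329, 95.2 and 30.4 CPM, and Top2a 170, 54.6 and 24.7 CPM.

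The size of this gap depended on the gate. With a mature-stage gate at 16000 CPM in place of 8000 CPM the shares were 2.56%, 0.878% and 0.609%, ratios of 2.90 and 4.16. With Mmp8 and Retnlg left out of the markers they were 25.8%, 19.1% and 11.1%, ratios of 1.35 and 2.32. In dividing neutrophils Mmp8, a granule collagenase, stood at 1138 CPM in the KO library, 277 CPM in that labelled Het and 138 CPM in that labelled WT, and Retnlg at 1411, 779 and 671 CPM. Csf3r, the receptor for granulocyte colony-stimulating factor, stood at 257, 272 and 279 CPM. Across the range of the mature markers, Mmp8 and Retnlg among them, in cells past the precursor stage, the KO share was the highest in each bin up to 32000 CPM. At 4000 to 8000 CPM it was 67.2% in KO cells, 31.9% in those labelled Het and 16.4% in those labelled WT. At 8000 to 16000 CPM it was 36.8%, 11.8% and 3.79%. From 32000 CPM upward it was 2 of 617 KO cells, 0 of 466 labelled Het and 0 of 830 labelled WT, with upper bounds of 1.17%, 0.788% and 0.443%, so no difference was detectable there.

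**Figure D4:**
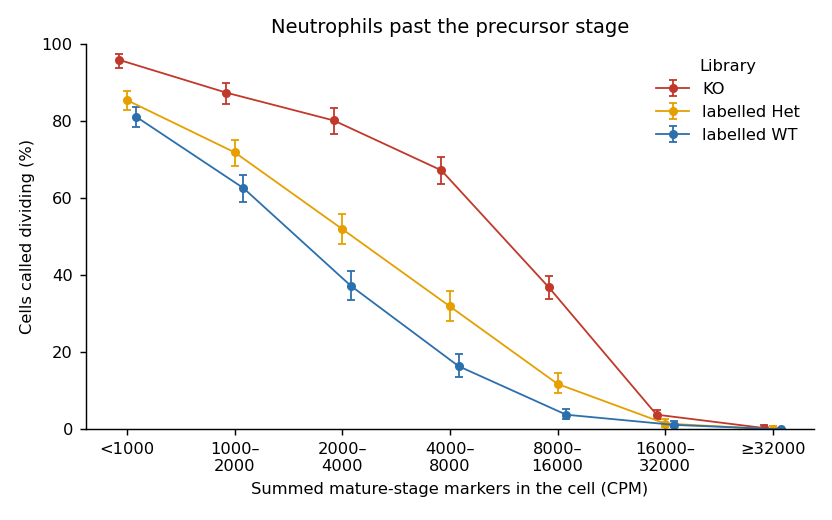
Share of cells called dividing (percent, vertical axis) against the summed mature-stage markers of the cell (CPM, horizontal axis) in neutrophils past the precursor stage, with 1 line per library (KO, labelled Het, labelled WT) and exact binomial intervals. All 3 lines fall to near 0, and the KO line lies above the others until the highest bins, with 67.2%, 31.9% and 16.4% at 4000 to 8000 CPM.

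The mix of stages differed too. Mature-stage cells made up 49.0% of KO neutrophils, 33.8% of those labelled Het and 42.5% of those labelled WT, and granule-stage cells 42.2%, 54.2% and 48.2%. Weighted to the stage mix of the library labelled Het, the shares of dividing neutrophils were 59.4% in the KO library, 42.1% in that labelled Het and 34.6% in that labelled WT. That weighting rests on the mature-stage gate, whose markers include Mmp8 and Retnlg. With granule-stage and mature-stage cells pooled, 45.8% of KO cells were dividing, 40.5% of those labelled Het and 28.9% of those labelled WT. Leaving out cells within 1.5-fold of a gate gave 46.2%, 45.1% and 33.1% over the lineage. Below the threshold, in neutrophils not called dividing, Cdc20 (9.07, 21.8 and 24.7 CPM), Tpx2 (6.62, 15.3 and 15.8 CPM), Cdk1 and Ccna2 were called lower in the KO library in both comparisons. There 26.6% of features were called lower against Het and 26.2% against WT. Ube2c was called higher in both (22.8, 14.1 and 11.5 CPM) and Ccnb2 against WT (71.1, 56.5 and 44.9 CPM), where 4.62% and 9.10% of features were. Most members lay under the minimum in these cells, and Mki67 and Top2a are held low there by the threshold itself. These values pool the stages. The 28 members summed in such cells had a KO over Het ratio of 0.806 over the lineage. By stage it was 1.38 in precursors, 1.17 in granule-stage and 1.40 in mature-stage cells. For KO over WT it was 0.808 pooled and 1.24, 1.005 and 1.32 by stage. In granule-stage cells Cdk1 was level with Het (16.2 and 16.1 CPM), and Cdc20 stayed lower (5.57 and 15.1 CPM). The part of the stage mix in the calls was not tested.

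B-lineage cells went the opposite way to neutrophils. The 28 members summed to 2994 CPM in KO cells, 7904 CPM in those labelled Het and 6519 CPM in those labelled WT, ratios of 0.379 and 0.459. Against Het 29 of 30 members were called lower, where 16.0% of features were, and against WT 26 of 30, where 18.4% were. The library labelled Het was called above that labelled WT for 1 member, Nuf2, where 2.87% of features were. The members' median log2 ratio was −1.44 for KO over Het and −1.15 for KO over WT, beside 0.00 over all features in both. Aurka had 42.5 CPM in KO cells, 180 CPM in those labelled Het and 148 CPM in those labelled WT, a KO over Het ratio of 0.237 (0.206 to 0.270). Plk1 had 72.3, 295 and 215 CPM (0.245), and Ndc80 57.1, 192 and 158 CPM (0.298). These are the 3 lowest ratios of the list. Bub1 was the 1 member not called against Het, at 55.7, 78.8 and 55.7 CPM, and its KO over WT ratio was 1.00. Next came Cenpa (164, 263 and 277 CPM, 0.624) and Mki67 (606, 1149 and 789 CPM, 0.528). Top2a had 474, 1345 and 1127 CPM and Cdc20 129, 338 and 331 CPM. Called against Het but not against WT were Mki67, Nuf2 and Ttk.

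Both parts, share and level, lay below in KO B cells, and the share part was the larger. Of the difference of −4910 CPM to Het, −3675 CPM (74.9%) came from the share of UMIs in dividing cells and −1220 CPM from the level in dividing cells. Of −3525 CPM to WT, −2941 CPM (83.4%) and −491.0 CPM did. The share part was larger in size than the part from the level in dividing cells in 28 and 27 of the 28 members. In dividing B cells the 28 members summed to 8677 CPM in the KO library, 11064 CPM in that labelled Het and 9687 CPM in that labelled WT. Of the members 4 were called lower against Het, where 7.83% of features were, and 1 higher, where 9.01% were. Against WT 3 were called lower, where 13.9% of features were, and 3 higher, where 15.3% were.

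The counts against WT lie below the background. In dividing B cells Bub1 was called higher in both comparisons, with 171 CPM in dividing KO B cells, 111 CPM in those labelled Het and 83.8 CPM in those labelled WT. Nuf2 (180, 178 and 119 CPM) and Mki67 (1848, 1615 and 1192 CPM), which helped choose the cells, were called higher against WT only. Aurka was called lower in both, with 129, 253 and 222 CPM. Plk1 (218, 416 and 322 CPM), Ndc80 (163, 267 and 234 CPM) and Prc1 (218, 352 and 286 CPM) were called lower against Het only, and Aurkb (245, 352 and 416 CPM) and Bub3 (305, 413 and 471 CPM) against WT only. The KO library held 158 dividing B cells, against 580 labelled Het and 758 labelled WT.

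Both B stages showed the lower level. Of pre-B cells 141 of 546 KO cells were dividing (25.8%), against 550 of 999 labelled Het (55.1%) and 701 of 1445 labelled WT (48.5%). Of later B cells 17 of 307 KO cells were (5.54%), against 30 of 191 labelled Het (15.7%) and 57 of 297 labelled WT (19.2%). In pre-B cells 27 of 30 members were called lower against Het, where 17.3% of features were, and 22 against WT, where 19.6% were. Pre-B Aurka had 57.2, 193 and 162 CPM, Plk1 99.5, 319 and 237 CPM, and Ndc80 75.5, 208 and 169 CPM. The highest ratios to Het were those of Bub1 (77.8, 85.9 and 60.5 CPM), Cenpa (220, 286 and 303 CPM) and Mki67 (839, 1235 and 855 CPM). Top2a had 652, 1451 and 1216 CPM and Cdc20 182, 369 and 361 CPM.

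In later B cells 27 of 30 members were called lower against Het, where 12.2% of features were, and 27 against WT, where 15.4% were. Cenpa was called against WT only and Ttk against Het only. Kif2c, which takes microtubules apart at kinetochores, had 6.28 CPM in KO cells, 36.8 CPM in those labelled Het and 40.4 CPM in those labelled WT. Kif20a had 8.37, 40.01 and 44.5 CPM, and Plk1 17.8, 81.6 and 53.6 CPM. Cenpa (51.2, 55.2 and 90.6 CPM), Nuf2 (25.1, 32.01 and 31.3 CPM) and Bub1 (11.5, 16.8 and 20.6 CPM) had the highest ratios to Het. Mki67 had 140, 395 and 307 CPM, Top2a 119, 414 and 474 CPM and Cdc20 23.5, 66.4 and 108 CPM. Pre-B cells made up 64.0% of KO B cells, 83.9% of those labelled Het and 83.0% of those labelled WT. Weighted to the mix of the library labelled Het, 22.6%, 48.7% and 43.8% of B cells were dividing. Immature B markers summed to 2596 CPM in KO B cells, 931 CPM in those labelled Het and 662 CPM in those labelled WT, and neutrophil markers to 1235, 1538 and 3306 CPM. Their part in the members' difference was not tested.

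KO monocytes had a higher share of dividing cells than those labelled Het, and a lower summed level within dividing cells than either other library. The 28 members summed to 3939 CPM in KO monocytes, 3809 CPM in those labelled Het and 4581 CPM in those labelled WT. In dividing monocytes they summed to 5172, 5672 and 6334 CPM, ratios of 0.912 to Het and 0.817 to WT. For KO minus Het the share part was 461.2 CPM and the part from the level in dividing cells −345.3 CPM. For KO minus WT these were 222.3 and −832.1 CPM. Aurka was the 1 of 30 members called lower against Het (66.2, 105 and 139 CPM, ratio 0.629, 0.583 to 0.679), where 12.5% of features were called lower. Against WT Aurka, Aurkb (117, 131 and 236 CPM) and Prc1 (105, 132 and 161 CPM) were called lower, where 18.9% of features were. Bub1 (63.5, 42.7 and 41.5 CPM) and Nuf2 (112, 82.9 and 70.7 CPM) were called higher against WT, where 12.7% were. Each of these counts of members lies below the background. The highest ratios to Het were those of Bub1, Nuf2 and Ccnb2 (341, 262 and 252 CPM), and the lowest those of Aurka, Prc1 and Cdc20 (125, 156 and 187 CPM). Mki67 had 863, 666 and 601 CPM and Top2a 509, 519 and 692 CPM.

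In dividing monocytes 1 of 30 members, Aurka, was called lower against Het, where 11.9% of features were (88.3, 160 and 196 CPM). Against WT 5 were, where 18.3% of features were: Aurka, Aurkb (156, 198 and 331 CPM), Prc1 (142, 203 and 231 CPM), Bub3 (184, 200 and 287 CPM) and Cdc20 (168, 232 and 256 CPM). The count against Het lies below the background, and the count against WT lies near it. Nuf2 had 149 CPM in dividing KO monocytes, 125 CPM in those labelled Het and 96.9 CPM in those labelled WT, and Bub1 84.8, 64.4 and 58.5 CPM. The library labelled Het stood between the other 2 for each of these genes. Neutrophil markers summed to 8207 CPM in KO monocytes, 5410 CPM in those labelled Het and 5751 CPM in those labelled WT, and macrophage markers to 66.0, 84.5 and 60.3 CPM. The gap was wider for granule-stage markers (11179.5, 3016 and 2058 CPM) and mature-stage markers (2288, 939 and 746 CPM). Cells within 1.5-fold of a gate made up 39.3% of KO monocytes, 23.1% of those labelled Het and 25.6% of those labelled WT. The part of these markers and cells in the values above was not tested.

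**Figure D5:**
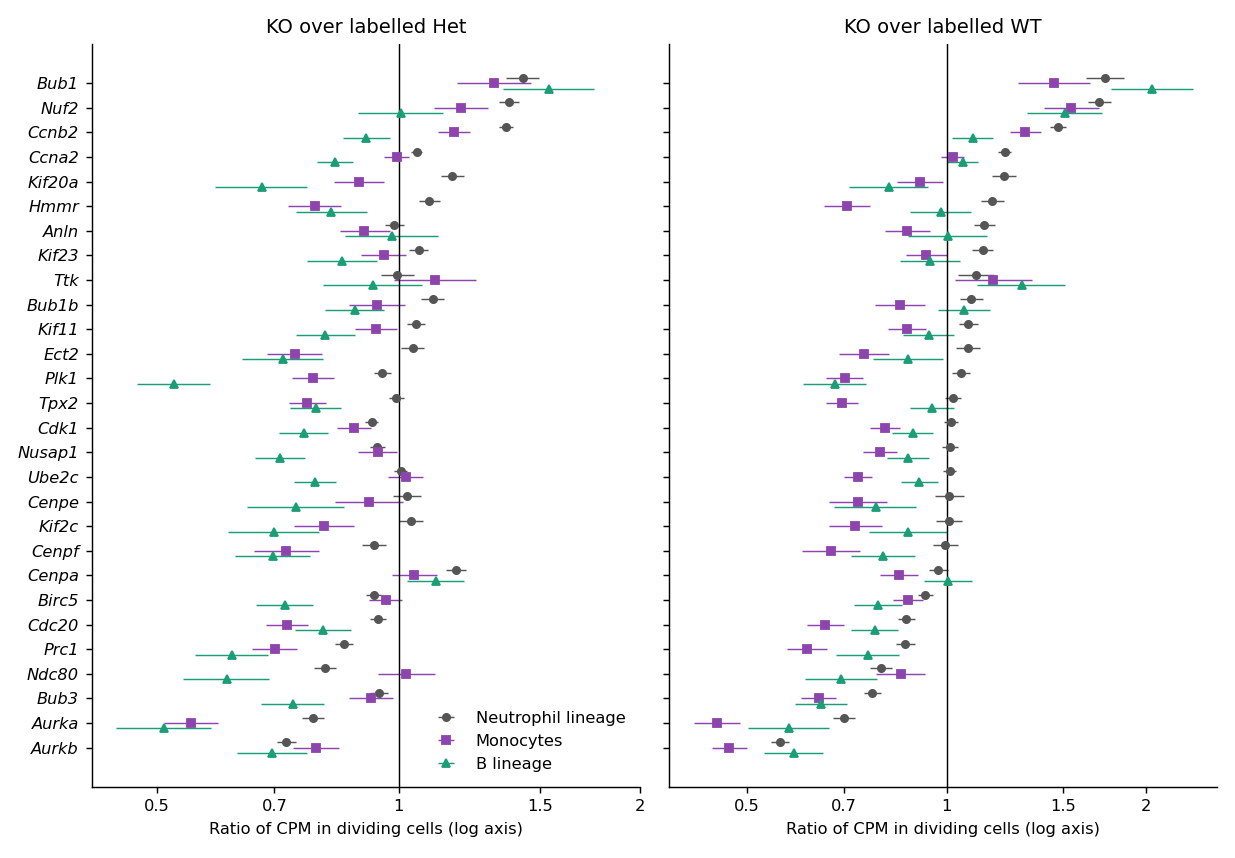
Ratio of each member's CPM in dividing cells (horizontal, log axis) for KO over labelled Het (left) and KO over labelled WT (right), with exact intervals, in 3 classes (grey circles neutrophil lineage, purple squares monocytes, green triangles B lineage). Members are ordered by the neutrophil KO over WT ratio, from Bub1 (1.73) and Nuf2 (1.70) at the top to Aurkb (0.561) at the bottom.

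In dividing cells Bub1 and Nuf2 had KO over WT ratios above 1 in neutrophils, monocytes and B cells, and Aurka and Aurkb ratios below 1. For Bub1 the 3 ratios were 1.73, 1.45 and 2.04, and for Nuf2 1.70, 1.54 and 1.51. For Aurkb they were 0.561, 0.471 and 0.589, and for Aurka 0.701, 0.451 and 0.579. Against Het these genes went the same way, except that Nuf2 was nearly level in dividing B cells. They were named after these ratios were seen, and the share of all features going 1 way in the 3 classes is not given. The 3 classes come from the same libraries and are no replicates of one another.

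Among erythroid cells, 113 in the KO library, 175 in that labelled Het and 77 in that labelled WT, the 28 members summed to 3048, 2724 and 2790 CPM. In dividing erythroid cells 6 of 30 members were called higher against Het, where 9.85% of features were, and 6 against WT, where 14.8% were. Nuf2 had 125 CPM in dividing KO cells, 68.6 CPM in those labelled Het and 73.1 CPM in those labelled WT, and Cenpa 196, 111 and 119 CPM, both called in the 2 comparisons. Over all erythroid cells the highest ratios to Het were those of Cenpa (128, 78.1 and 88.9 CPM), Nuf2 (70.7, 44.95 and 49.6 CPM) and Nusap1 (322, 221 and 151 CPM). The lowest were those of Aurkb (75.7, 93.6 and 141 CPM), Cenpf (32.7, 39.7 and 46.1 CPM) and Prc1 (66.5, 76.6 and 76.0 CPM). Mki67 had 619, 462 and 426 CPM, Top2a 412, 376 and 459 CPM and Cdc20 147, 137 and 135 CPM.

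Macrophages held few mitosis transcripts, 172 CPM for the 28 members in KO cells, 642 CPM in those labelled Het and 597 CPM in those labelled WT. These levels rest on few cells, since the 7 dividing cells labelled Het held 309 of its 442 summed UMIs and the 3 labelled WT 190 of 317, against 1 of 270 in the KO library. In macrophages not called dividing the 28 members summed to 172, 208 and 252 CPM, ratios of 0.827 (0.669 to 1.03) and 0.681 (0.549 to 0.848). Of the 13 members that passed the minimum, Cdk1 (32.5, 27.6 and 52.7 CPM), Bub3 (52.2, 63.9 and 86.6 CPM) and Cenpa (18.5, 29.03 and 65.9 CPM) had the highest ratios to Het. The lowest were those of Birc5 (1.27, 31.9 and 11.3 CPM), Cdc20 (2.55, 43.6 and 18.8 CPM) and Ccnb2 (3.82, 43.6 and 20.7 CPM). Mki67 had 36.3, 71.1 and 32.02 CPM and Top2a 6.37, 34.8 and 52.7 CPM. Stem and progenitor cells were dividing in 11 of 36 KO cells, 52 of 158 labelled Het and 32 of 107 labelled WT, near-equal shares. The remaining small classes are given as counts, since under 50 cells stood in at least 1 library. Dividing were 11 of 48, 24 of 71 and 20 of 60 basophils and mast cells, and 3 of 16, 4 of 29 and 2 of 21 eosinophils. Of plasmacytoid dendritic cells 3 of 33, 14 of 50 and 31 of 100 were, of conventional dendritic cells 1 of 18, 16 of 72 and 8 of 44, and of natural killer and innate lymphoid cells 15 of 56, 19 of 39 and 5 of 15.

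Summed over all barcodes, the KO library and that labelled Het held nearly the same level. The 28 members had 3367 CPM in the KO library, 3373 CPM in that labelled Het and 2979 CPM in that labelled WT, ratios of 0.998 and 1.13. None of 30 members was called against Het, where 3.19% of features were called higher and 17.3% lower. Against WT Mki67 (747, 592 and 395 CPM), Ccnb2 (258, 198 and 164 CPM), Bub1 (46.3, 33.0 and 24.4 CPM) and Nuf2 (113, 76.8 and 52.8 CPM) were called higher, where 9.17% of features were, and Aurkb (88.2, 115 and 137 CPM) lower, where 21.1% were. With TMM scaling 4 members were called higher against Het, where 12.7% of features were, and 9 against WT, where 19.0% were, and none lower, where 8.20% and 11.5% were. Top2a had 448, 522 and 467 CPM and Cdc20 132, 149 and 146 CPM.

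Other genes of division were read from lists of 48 further mitosis genes, 43 S-phase genes and 26 regulators. In KO neutrophils 4 of 47 further mitosis genes tested were called higher than in those labelled Het and 1 lower, with a median log2 ratio of 0.17, beside 3.33% and 11.7% of all features. Against WT 17 were called higher and 1 lower, with a median of 0.42, beside 11.7% and 16.3%. Of S-phase genes 0 of 42 were called higher and 1 lower against Het (median −0.11, and 0.07 with TMM scaling), and 5 higher and 0 lower against WT (median 0.16), where the 5 lie near the background. Sgo2a, which guards sister chromatid cohesion, had 61.7 CPM in KO neutrophils, 31.4 CPM in those labelled Het and 29.1 CPM in those labelled WT. Mastl, the kinase that restrains the phosphatase opposing Cdk1, had 20.1, 12.6 and 9.60 CPM, and Rbl2, a pocket protein of the complex that silences mitosis genes in resting cells, 72.9, 45.2 and 49.9 CPM. The lowest ratios to Het were those of Cenpm (16.4, 30.98 and 41.1 CPM), Uhrf1 (165, 262 and 233 CPM) and E2f4 (75.8, 114 and 109 CPM). Foxm1, an activator of mitosis genes, had 92.8, 68.8 and 44.4 CPM, Mybl2, another, 62.8, 78.0 and 69.9 CPM, and the inhibitor Cdkn1a 21.3, 31.8 and 42.2 CPM.

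In precursors 20 of 48 further mitosis genes were called higher in the KO library than in that labelled Het and 1 lower, where 5.19% and 13.3% of features were. Of S-phase genes 2 of 43 were called higher, near the background. In neutrophils not called dividing, 36 of 40 S-phase genes were called lower against Het and 30 of 40 against WT, beside 26.6% and 26.2% of all features. Pooled over stages, the S-phase list summed there to 1184 CPM in the KO library, 2516 CPM in that labelled Het and 2231 CPM in that labelled WT. By stage the sums were 7998, 7639 and 8322 CPM in precursors and 1553, 1938 and 1786 CPM in granule-stage cells. In mature-stage cells they were 305, 286 and 302 CPM. The part of the stage mix in these counts was not tested. S-phase UMIs lay in dividing cells for 90.5% of KO neutrophils' total, 74.8% of that labelled Het and 68.8% of that labelled WT. In the B lineage all 48 further mitosis genes were called lower than in the library labelled Het, with 40 of 43 S-phase genes and 13 of 26 regulators, where 16.0% of features were, and 1 regulator was called higher, where 12.2% were. Against WT 39, 36 and 9 were called lower, where 18.4% of features were. Foxm1 had 102 CPM in KO B cells, 183 CPM in those labelled Het and 119 CPM in those labelled WT, Mybl2 58.3, 160 and 163 CPM, and Cdkn1a 7.32, 29.3 and 61.2 CPM.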

How the data were processed

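Per the submitters' processing notes, Cell Ranger 7.0.0 and mm10 were used. The deposited values are the authors' whole-number UMI counts per gene and barcode, not normalised. The sources used here state neither its settings nor the probe version. Each gene is read only at its probes.

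Scrublet in scanpy 1.11.5 marked 298 KO barcodes, 186 labelled Het and 273 labelled WT as doublets, and left 7947, 7814 and 9327 cells. Sums over all cells use all barcodes, and class values the cells kept. A class holds the cells whose summed marker CPM reached its gate, for example 16000 CPM for neutrophils, 8000 for the mature stage, 4000 for precursors, 2000 for monocytes, macrophages and B cells, and 300 for pre-B. Gates were set at low points of the pooled histograms after the files were seen. Of the kept cells 184, 206 and 296 reached gates treated as in conflict and were set apart, and 38, 64 and 21 fell in no class. Other cells could reach more than 1 gate and stay in a class, such as precursors that also reached the monocyte gate. Classes were named from markers and could differ under another annotation.

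Values are UMIs summed per library, class and state, as CPM. Intervals at 95% are Poisson for CPM, conditional binomial for ratios and Clopper-Pearson for shares, all exact. Log2 ratios have 0.5 counts added. A difference of sums is split into 3 parts, each at the mean of the other factor (the planned split had 2, and the planned 29 members are 28, as Ccnb1 has no row). The calling and splitting were tested on simulated data. TMM (edgeR 4.0.16) and median-of-ratios factors (DESeq2 1.42.0, R 4.3.3) served only to rescale. Python 3.11.15, numpy 2.4.6, scipy 1.17.1, pandas 2.3.3 and matplotlib 3.10.9 did the rest.

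Over all cells and in neutrophils any member could be named. Elsewhere those with the 3 highest and 3 lowest KO over Het ratios, Mki67, Top2a and Cdc20 were named, and beyond this rule those called in dividing cells. From the other lists came the 3 highest, the 3 lowest, Foxm1, Mybl2 and Cdkn1a. The members and lists were chosen with earlier results of these data known. Promoter windows came from RefSeq, and positions from the GRCm38 gene annotation.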

Additional observations from a re-analysis of the deposited data

How the results depend on the processing

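No paired analysis was possible because the groups share only replicate number 1 and no result comes from a test, and no library could be left out, as each group has 1. Of 927 alternative values 612 stayed within the counting interval of the reported one or within 1.5 times a count, 301 moved beyond it and 14 changed direction. The causes were not tested. At this depth shares of rare dividing cells and members under 10 CPM are limited by counts, and the shallower library labelled WT the most.

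KO over Het shares of dividing neutrophils, 1.17 as reported, were 1.07 with the threshold at 200 CPM and 1.02 without cells near a gate. KO over WT, 1.62, was 1.41 at 200 CPM, 1.73 at 800 CPM, 1.42 with cells thinned to 5000 UMIs and 1.395 without cells near a gate. In monocytes the ratios without cells near a gate were 1.396 to Het and 1.28 to WT. In B cells KO over WT, 0.426, was 0.298 thinned to 5000 UMIs and 0.330 thinned to 3000. The Het over WT share of B cells, 1.12, turned to 0.727 and 0.883 under the same thinnings and to 0.985 without cells under 2500 UMIs, and that of pre-B cells to 0.789 and 0.905. Thinning to 5000 leaves out many shallow B cells labelled WT.

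For the summed members over all cells, KO over Het was 1.24 with TMM and 1.22 with median-of-ratios scaling, and KO over WT 1.34 with each. In neutrophils KO over Het, 1.19, was 1.34, 1.37, 1.05 without cells near a gate and 1.16 as a mean of per-cell CPM, and KO over WT, 1.5, was 1.70, 1.70, 1.27 and 1.55. In monocytes KO over Het was 1.09, 1.08, 1.07 and 1.09, and KO over WT 0.922, 0.920 and, near a gate left out, 0.925. In B cells KO over Het was 0.387, 0.391, 0.397 and 0.308, with 0.387 over all barcodes, and KO over WT 0.478 with median of ratios, 0.481, 0.375 and 0.467. In later B cells Het over WT turned to 1.15 without cells near a gate.

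Per dividing cell, neutrophil KO over Het, 1.01, was 1.08 at 200 CPM, 0.984 at 800 CPM, 1.05 after thinning and 1.02 as a per-cell mean, and KO over WT, 1.03, was 1.13, 0.984 and 1.08. At 800 CPM precursor KO over WT turned to 0.951 and Het over WT to 0.947. In granule-stage cells KO over Het turned to 1.00 at 200 CPM, and KO over WT to 1.03 at 200 CPM and 1.00 after thinning. In monocytes KO over Het was 0.952, 0.860 and 0.927 after thinning, and KO over WT 0.848 at 200 CPM and 0.828 after thinning. In B cells KO over Het was 0.716, 0.858 and, per cell, 0.699, and KO over WT 0.830, 0.918 and 0.785.

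Members called higher in KO neutrophils over Het, 3 as reported, were 10 at the lower fold tried, 0 at the higher (2), and 6 with either other scaling. The S-phase median there turned to 0.066 with TMM.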
